A study of Homo sapiens with 11 samples.

Results

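Gene expression in MV4-11 cells kept for 6 h with the compound Chb-50 was compared with that in cells kept for 6 h with its solvent DMSO alone. The comparison takes 2 of the 11 arrays of the series, 1 on each side, and rests on the difference of their log2 levels for each transcript cluster that carries 1 gene symbol. There were 23558 such clusters. They gave 22109 genes, of which 12147 had a level of at least 3.80 on 1 or more of the 11 arrays and were tested. A transcript cluster is a set of array probes summarised into 1 value for a locus, and a difference of 1 on the log2 scale is 2-fold.

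MV4-11 is an established human acute myeloid leukaemia line that carries a fusion of KMT2A. The labels name no shRNA for either group, and both were grown in the same medium: the treated culture received Chb-50 at 1 µM, and the control culture received DMSO. A further array held cells given Chb-M' at 1 µM for 6 h. The other 8 arrays held cells transduced with shRNAs against luciferase (shLuc) or against RUNX1, RUNX2 and RUNX3 in every combination, all kept with doxycycline at 3 µM for 24 h. These 8 and the DMSO array are called the 9 arrays without a compound, and they differ from the treated array in time and handling as well as in the compound. Every condition had 1 array, made from 100 ng of total RNA, so the difference between Chb-50 and DMSO has no replicate check.

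Chb-50 and Chb-M' are described in the design text as alkylating PIP conjugates. A PIP is a polyamide of pyrrole and imidazole rings that lies in the minor groove of DNA and reads its sequence, and an alkylating group fixed to it can bind the DNA covalently. RUNX proteins are transcription factors that bind DNA together with CBFB and that set myeloid and lymphoid programmes of blood cells. Alkylated DNA is a lesion that cells sense through kinases which stabilise p53, the transcription factor that turns on genes of cell cycle arrest, repair and apoptosis. The structures and target sequences of both code-named compounds are not given in the sources used here.

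Markers of the line reached the level needed for testing. All 11 myeloid markers with a cluster of their own were tested, at DMSO levels from 4.03 for ITGAM to 11.05 for LYZ, and FLT3 read 9.87 on the DMSO array and 9.77 on the Chb-50 array. The T cell genes CD3D, CD3E and CD3G lay between 1.99 and 2.36 on both arrays, but NKG7 of the T and NK list read 6.89 with DMSO and 6.97 with Chb-50. With DMSO the B cell gene CD79A read 4.92, the megakaryocyte gene PF4 5.21 and the epithelial gene KRT8 4.63. These 3 lay above ITGAM and CD38 (4.32), so the dimmer line markers do not stand apart from those of other cell types. Of the marker lists for other cell types, 3 of 10 T and NK genes, 3 of 5 B cell genes, 5 of 8 erythroid and megakaryocyte genes and 2 of 8 fibroblast and epithelial genes were above the level filter. Array medians lay between 5.86 and 5.91 over the 11 arrays.

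Among protein-coding genes, those that lay highest at 6 h with Chb-50 were 3 targets of p53, and those at least 2-fold lower were mitotic kinesins and genes of over 200 kb. Of the 12147 genes tested, 36 differed by at least 2-fold between Chb-50 and DMSO, which is 0.296% of them: 17 were higher (0.14%) and 19 lower (0.156%). Chb-M', read against the same DMSO array, gave 106 such genes (0.873%), 38 higher and 68 lower. At 1.5-fold the Chb-50 array held 169 genes higher (1.39%) and 240 lower (1.98%). For scale, each of the 8 knockdown arrays differed from the DMSO array by 2-fold in 113 to 216 genes.

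Only 14 of the 36 genes past 2-fold were protein-coding. The 6 that lay higher were TP53INP1, CDKN1A, PLK2, TSPYL6, LYNX1 and SLC25A53, and the 8 that lay lower were CENPE, GPHN, CSMD3, KIF14, ADGRL3, ARHGAP42, LRBA and KIF18A. Of the 6 higher genes the first 3 are p53 targets. Of the 8 lower genes, 3 encode kinesins of the mitotic spindle, and the other 5 span more than 200 kb of the genome each. Among these 5, ARHGAP42 reached the level filter with DMSO but not with Chb-50 or on any knockdown array. The largest difference in each direction belonged to a microRNA gene.

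No gene passed a test that borrows its spread from the other arrays. In a limma fit of all 11 arrays with a term for each shRNA, which takes its spread from the knockdown arrays and assumes that the lone compound arrays vary like them, 0 of 12147 genes had a Benjamini-Hochberg adjusted p under 0.05 for Chb-50 minus DMSO. The smallest adjusted p was 0.154, and 1114 genes (9.17%) had an unadjusted p under 0.05, with 478 higher (3.94%) and 636 lower (5.24%). All p-values and standard errors (SE) below come from this fit, and the spread behind them is that of single arrays of different conditions, part of which may be technical. Because nothing passed, genes are described as lying higher or lower on the Chb-50 array. The gene lists below were chosen with earlier results of these data known. Counts within them are therefore descriptions and not independent support.

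The p53 targets lay higher as a group. Of 32 genes listed, 30 had a cluster of their own and 28 passed the level filter. Among those 28, 27 lay higher with Chb-50 than with DMSO and 1 lay lower, against 50.2% higher and 49.5% lower over all genes tested. Their median difference was 0.39 on the log2 scale, against 0.00 over all genes and 0.02 for the same genes on the shLuc array. On 24 of the 28 the Chb-50 level was above all 9 arrays without a compound, a position that 15.8% of all genes tested held.

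**Figure D1:**
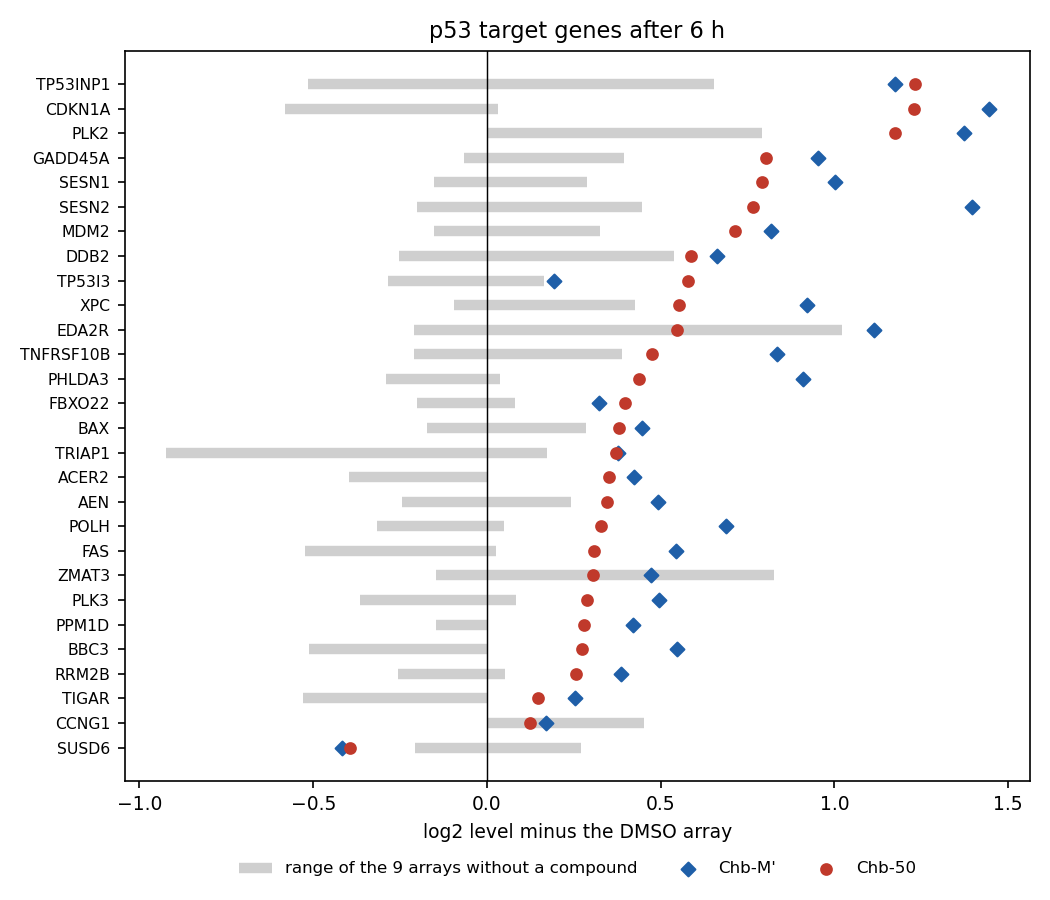
Difference in log2 level from the DMSO array (horizontal axis) for the 28 p53 targets tested, with Chb-50 as circles, Chb-M' as diamonds and a grey bar from the lowest to the highest of the 9 arrays without a compound. The Chb-50 circle lies to the right of the grey bar in 24 genes, and SUSD6 alone lies to the left of 0.

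Of the p53 targets, 3 lay at least 2-fold higher. CDKN1A encodes p21, an inhibitor of cyclin-dependent kinases, and read 5.91 with DMSO, 7.14 with Chb-50 and 7.36 with Chb-M', against 5.33 to 5.95 (median 5.74) on the knockdown arrays. The Chb-50 level was clear of all 9 arrays without a compound by more than 1 log2 unit. The difference from DMSO was 1.23 (SE 0.209, 95% interval 0.74 to 1.72, limma adjusted p = 0.189), or 2.34-fold. Among the other inhibitors of these kinases CDKN1C differed by 0.53, from 4.16 to 4.69, while CDKN1B (0.04) and CDKN2A (0.20) stayed close to DMSO and CDKN2D lay lower (-0.46).

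PLK2 and TP53INP1 were the other such targets. PLK2, a stress-responsive kinase of the polo family, read 5.19 with DMSO, 6.36 with Chb-50 and 6.56 with Chb-M', and 5.21 to 5.98 (median 5.48) on the knockdown arrays. Its difference was 1.17 (SE 0.259, limma adjusted p = 0.231). TP53INP1, which promotes p53 phosphorylation and cell death, read 4.65, 5.88 and 5.83 on the 3 arrays and 4.14 to 5.30 on the knockdown arrays. Its difference was 1.23 with a wider SE of 0.384 (limma adjusted p = 0.405), since the gene varied more between knockdown arrays around the additive shRNA terms. In both genes the treated arrays stood above every array without a compound.

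PLK2 is one of 2 p53 targets whose promoter window held a match to the p53 half-site, and its sequence is shown for that reason. Windows of 300 bases, from 250 before to 50 after the first start listed by RefSeq for each gene (GRCh38.p14), were found for 22 of the 28 targets. The half-site was found on either strand in 2 of the 22 (9.09%) and in 5.08% of the windows of all 8768 protein-coding genes tested that had one. With the windows of every listed start, 5 of the 22 (22.7%) held it, and 7.25% of all these genes. In the PLK2 stretch, chr5:58460087-58460236 on the minus strand, the match is in capitals and the sequence ends at the base before the start. A match is a description of these letters, and targets are often bound in introns or further upstream, outside the window.
PLK2: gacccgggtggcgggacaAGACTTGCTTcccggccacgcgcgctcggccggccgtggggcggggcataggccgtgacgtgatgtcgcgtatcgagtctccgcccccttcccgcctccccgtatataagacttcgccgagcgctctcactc

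The stress and DNA repair targets followed. GADD45A, a growth arrest protein, read 6.41 with DMSO and 7.21 with Chb-50, a difference of 0.80 (SE 0.136, limma adjusted p = 0.189), and lay at most at 6.81 on the knockdown arrays. The sestrins, which restrain mTORC1 under stress, differed by 0.79 (SESN1, from 5.38 to 6.18) and by 0.76 (SESN2, from 5.29 to 6.06). Excision repair was represented by DDB2 (0.59) and XPC (0.55), which recognise damaged bases, and translesion synthesis by POLH (0.33). RRM2B, the p53-inducible subunit of ribonucleotide reductase, differed by 0.26. All 7 lay above the 9 arrays without a compound.

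The negative regulators of p53 that are also its targets lay higher too. MDM2, the ubiquitin ligase of p53, read 8.76 with DMSO, 9.47 with Chb-50 and 9.57 with Chb-M', against 8.61 to 9.08 on the knockdown arrays. The difference was 0.71 (SE 0.185, limma adjusted p = 0.307). PPM1D, a phosphatase that ends damage signalling, differed by 0.28 and reached 7.63, above all 9 arrays without a compound. The wider list of p53 regulators had a median of -0.02 over 10 genes tested, with MDM4 at 0.14, CHEK2 at -0.01 and HIPK2 at -0.28.

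Targets that act in apoptosis lay higher as well. TNFRSF10B, a death receptor for TRAIL, differed by 0.47, BAX by 0.38, FAS by 0.31 and BBC3, which encodes PUMA, by 0.27. Each of these 4 Chb-50 levels was above the 9 arrays without a compound. In the BCL2 family outside the p53 list, the pro-apoptotic PMAIP1 (NOXA) lay 0.38 higher and BAK1 0.31 higher, but BIK, also pro-apoptotic, lay 0.49 lower, from 5.19 to 4.70, inside the knockdown range (4.46 to 4.98). MCL1 (-0.04), BCL2L1 (0.06) and BCL2 (-0.20) lay within 0.2 of DMSO. The family's median over 13 genes was 0.06.

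The remaining 4 of the 28 targets did not lie above all 9 arrays without a compound. CCNG1 differed by 0.12 and at 8.21 lay below the knockdown arrays (8.38 to 8.54). EDA2R and ZMAT3 differed by 0.55 and 0.30 but stood inside the knockdown range. SUSD6 lay 0.40 lower, at 5.09 against 5.48, and below all 9 arrays without a compound. In these RNAs from whole cultures, a change in the share of cells that express a gene and a change in RNA per cell cannot be told apart.

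MIR34A, the gene of a microRNA induced by p53, is on none of the lists and was singled out after its values were seen. Its cluster read 3.29 with DMSO, 4.17 with Chb-50 and 3.99 with Chb-M', and 3.63 to 4.07 (median 3.71) on the knockdown arrays. The difference of 0.88 (limma adjusted p = 0.319) therefore rests in part on a DMSO level below every knockdown array, and a probe set on this kind of array does not separate precursor from mature RNA. The mature sequences are shown with the seed, bases 2 to 8 that pair with target mRNAs, in capitals (RefSeq, GRCh38.p14, chr1, minus strand).
hsa-miR-34a-5p: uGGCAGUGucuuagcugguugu
hsa-miR-34a-3p: cAAUCAGCaaguauacugcccu

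Long genes lay lower, and the shift grew with gene span. RNA polymerase II copies a gene from end to end, so a long gene takes longer to transcribe and offers more DNA in which a lesion can block the enzyme. Spans were taken from the RefSeq table for GRCh38.p14. Over 545 protein-coding genes with a span above 200 kb, 465 lay lower with Chb-50 than with DMSO, with a median of -0.25, and 78 lay lower by at least 1.5-fold while 0 lay higher by as much. Over all protein-coding genes 49.7% lay lower. In 309 of the 545 (56.7%) the Chb-50 level was below all 9 arrays without a compound, against 17% of all genes tested.

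The median difference was lower in each longer class of span. It was 0.05 for the 2385 genes under 10 kb, 0.04 for the 3210 genes of 10 to 30 kb and -0.02 for the 3366 genes of 30 to 100 kb. It then reached -0.11 for 1066 genes of 100 to 200 kb, -0.24 for 473 genes of 200 to 500 kb and -0.37 for the 72 genes over 500 kb. Of these 72 genes, 52 lay below all 9 arrays without a compound. On the shLuc array the same classes from under 10 kb to 200 to 500 kb had medians within 0.01 of DMSO, and the class over 500 kb had 0.09. No knockdown array had a median for the genes over 200 kb outside -0.00 to 0.05.

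**Figure D2:**
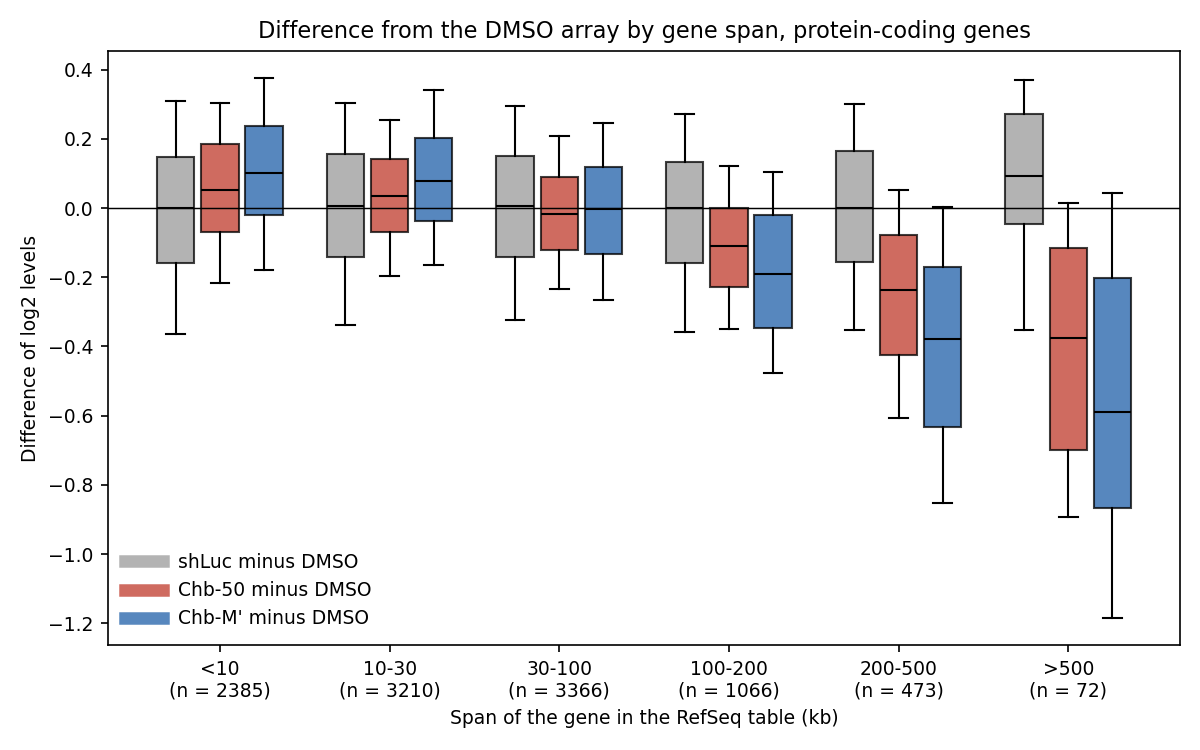
Difference in log2 level from the DMSO array (vertical axis) for protein-coding genes grouped by span in kb (horizontal axis), for shLuc, Chb-50 and Chb-M'. Boxes show the median and quartiles and whiskers the 10th to 90th percentile, and the Chb-50 median moves from 0.05 under 10 kb to -0.37 over 500 kb while the shLuc median stays between 0.00 and 0.09.

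The relation was present at every level of expression. Split by mean level into 3 equal parts of all protein-coding genes, the genes over 200 kb had medians of -0.15 in the lowest part, -0.31 in the middle part and -0.29 in the highest, and the genes under 10 kb had 0.04, 0.06 and 0.05. Across the 10572 protein-coding genes, Spearman's rho of the difference with span was -0.309 for Chb-50 and 0.005 for shLuc. This is a description across genes of 2 arrays with the same DMSO control, and genes are not independent replicates.

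The genes furthest down have unrelated roles. GPHN, which anchors inhibitory receptors at synapses and makes the molybdenum cofactor, spans 1227 kb and read 7.05 with DMSO, 5.92 with Chb-50 and 5.61 with Chb-M', against 7.01 to 7.29 (median 7.15) on the knockdown arrays. Its difference was -1.13 (SE 0.143, limma adjusted p = 0.154) or 2.19-fold lower. LRBA, a vesicle protein of 751 kb that sustains the recycling of CTLA4, read 5.47 with Chb-50 and 5.39 with Chb-M', a difference from DMSO of -1.03 (SE 0.159). ADGRL3, an adhesion receptor of 878 kb, read 7.06, 6.01 and 5.40. All 3 lay below every array without a compound.

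The same held further down the list of long genes. SCAPER (557 kb) differed by -0.99, UTRN (568 kb), which encodes the dystrophin relative utrophin, by -0.94, VPS13B (864 kb) by -0.93 and CDKAL1 (698 kb), a tRNA-modifying enzyme, by -0.93. NCOA1, a coactivator of nuclear receptors, FER, a tyrosine kinase, PRKCA, a protein kinase C, and SBF2 differed by -0.91, -0.90, -0.89 and -0.89. DIAPH2, a formin of 920 kb, had a smaller difference of -0.80 and a small SE of 0.105 (limma adjusted p = 0.154). Each of these 9 genes lay below all 9 arrays without a compound.

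Some of the long genes give weaker readings. ARHGAP42 differed by -1.04 (3.85 to 2.81), but its knockdown arrays lay at 3.14 to 3.47, so part of that difference is a high DMSO level. Its DMSO level was just above the filter of 3.80, and its Chb-50 and knockdown levels were under it. ANKFN1 differed by -0.95 with an SE of 0.887, since 1 knockdown array read 8.33. The long genes that lay highest were FGGY (0.56), FAM107B (0.52) and ENTREP2 (0.48), all at DMSO levels under 4. Of these 3 only ENTREP2 lay above all 9 arrays without a compound.

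Genes of G2 and mitosis lay lower without exception among those tested. Of 31 listed, 29 were tested, with a median of -0.39. All 29 lay lower with Chb-50 than with DMSO, against 49.5% of all genes tested. By at least 1.5-fold 11 of them lay lower, against 1.98% of all genes. Their median span of 29.8 kb is close to that of all genes tested, 23.9 kb. The shLuc array had a median of 0.16 for the same genes. Knockdown arrays that combined shRNAs against RUNX1 and RUNX3 read as low or lower than Chb-50 (median -0.90 with both shRNAs and -0.75 with all 3), so only KIF23 with Chb-50 lay below all 9 arrays without a compound.

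**Figure D3:**
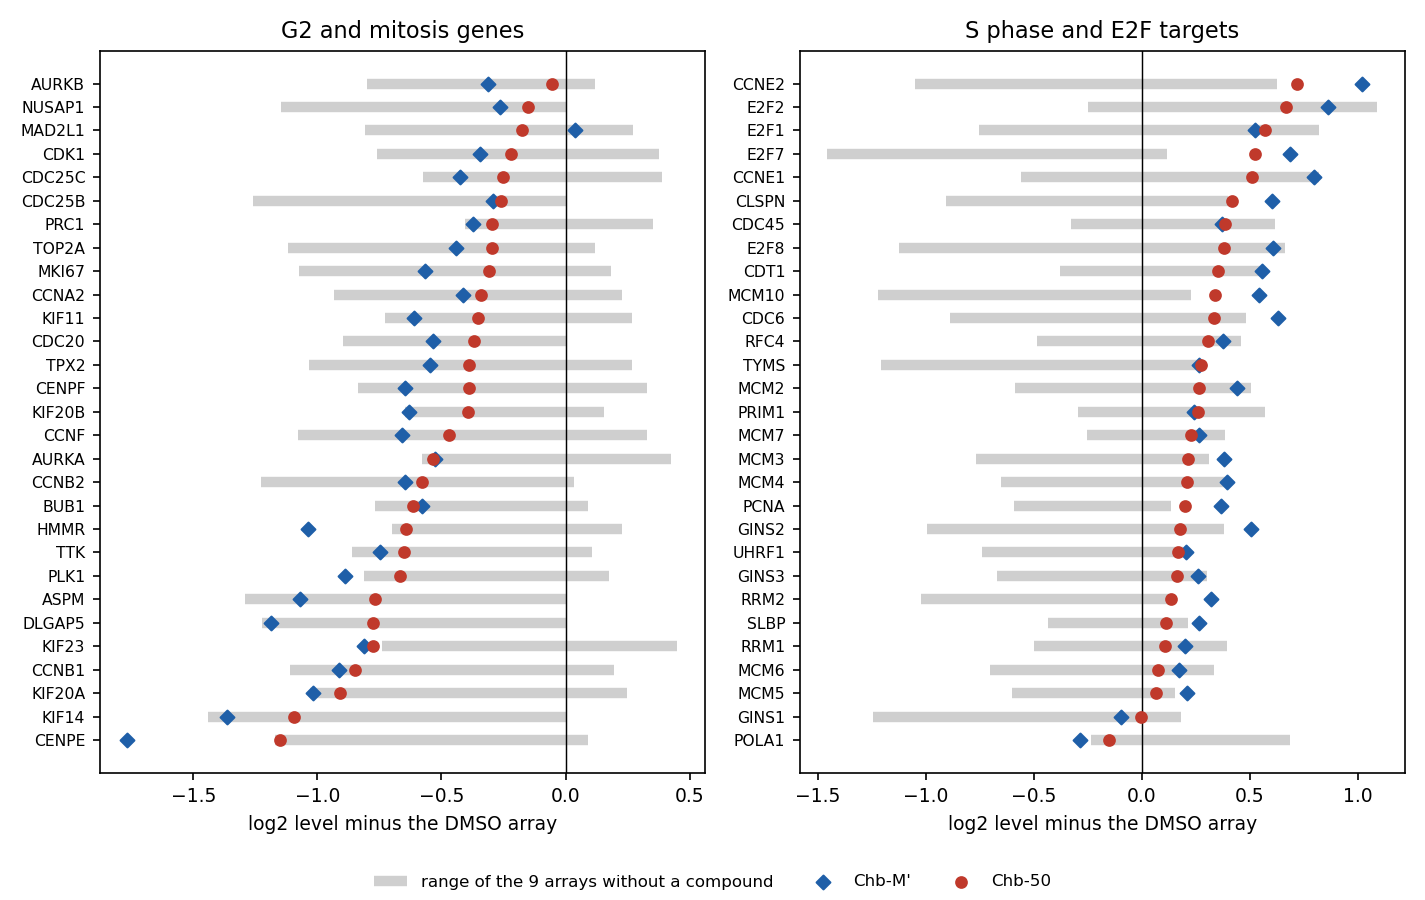
Difference in log2 level from the DMSO array (horizontal axes) for 29 genes of G2 and mitosis (left) and 29 genes of S phase (right), with Chb-50 as circles, Chb-M' as diamonds and grey bars over the 9 arrays without a compound. All 29 Chb-50 circles on the left lie below 0 and 27 of the 29 on the right lie above it, mostly within the grey bars.

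CENPE, the kinesin that aligns chromosomes, read 8.83 with DMSO, 7.67 with Chb-50 and 7.06 with Chb-M', and 7.66 to 8.92 (median 8.60) on the knockdown arrays. Its difference was -1.15 (SE 0.348, limma adjusted p = 0.386). KIF14, a kinesin of cytokinesis, read 8.02, 6.92 and 6.65, a difference of -1.10, and KIF20A and KIF23, which build the central spindle, differed by -0.91 and -0.78. KIF18A, a spindle motor outside the list, differed by -1.02. The Chb-50 value of KIF23 lay just below the knockdown range, that of CENPE at its bottom edge, and those of KIF14, KIF20A and KIF18A inside it.

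Cyclins and kinases of mitotic entry lay on the same side. CCNB1 lay 0.85 lower and CCNB2 0.58 lower, which are the B-type cyclins, and their partner CDK1 differed by -0.22. PLK1, the polo-like kinase of mitosis, read 10.15 with DMSO and 9.48 with Chb-50, and AURKA differed by -0.53 while AURKB differed by -0.05. The proliferation marker MKI67 differed by -0.31 and TOP2A by -0.30. SE ran from 0.212 to 0.418 in this list, and no member had a limma adjusted p under 0.386. The fit adds up the effects of the single shRNAs. List medians against DMSO were 0.03 with shRUNX1, 0.05 with shRUNX3 and -0.90 with both. These SE may therefore hold departure from additive effects as well as spread between arrays.

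Promoters of the mitosis genes shared short elements. The CHR element, searched as TTTGAA or TTCGAA on both strands, and the CCAAT box, searched as CCAAT on both strands, are known parts of cell cycle promoters, read by complexes with a MuvB core and by NF-Y. In the RefSeq windows of 300 bases, CHR letters were present in 19 of 26 mitosis promoters (73.1%) and in 11.5% of the 8768 windows of all protein-coding genes tested. CCAAT was present in 88.5% and 36.6%. The RUNX letters TGTGGT or TGCGGT were present in 7.69% of the mitosis windows, 18.2% of the p53 target windows, 18.2% of the windows of genes over 200 kb and 18.9% of all windows. These shares use the first listed start. With every listed start the RUNX shares were 7.69%, 27.3%, 30.6% and 24.3% of genes, and genes with more starts have more windows. A match is no evidence of binding, and the absence of a match says only that these letters are not in the window.

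The 150 bases before the start are shown for 4 mitosis genes that lay 0.58 to 0.78 lower, with CHR and CCAAT letters of either strand in capitals (GRCh38.p14, plus strand). CCNB2 is at chr15:59104996-59105145, PLK1 at chr16:23678739-23678888, KIF23 at chr15:69414199-69414348 and HMMR, a spindle protein, at chr5:163460482-163460631. In each of the 4, 1 or more CCAAT boxes precede a CHR, whose first base lies at position -22 to -55 from the start, and in HMMR neighbouring matches overlap or join.
CCNB2: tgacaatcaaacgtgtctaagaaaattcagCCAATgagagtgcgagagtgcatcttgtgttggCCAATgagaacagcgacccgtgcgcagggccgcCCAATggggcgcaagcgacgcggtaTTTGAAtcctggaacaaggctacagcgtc
PLK1: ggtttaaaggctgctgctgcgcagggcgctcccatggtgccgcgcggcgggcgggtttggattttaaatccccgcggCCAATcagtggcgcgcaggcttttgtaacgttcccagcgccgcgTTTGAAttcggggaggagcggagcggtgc
KIF23: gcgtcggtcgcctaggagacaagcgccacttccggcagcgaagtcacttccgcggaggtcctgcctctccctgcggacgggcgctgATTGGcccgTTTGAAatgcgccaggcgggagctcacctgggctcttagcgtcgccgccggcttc
HMMR: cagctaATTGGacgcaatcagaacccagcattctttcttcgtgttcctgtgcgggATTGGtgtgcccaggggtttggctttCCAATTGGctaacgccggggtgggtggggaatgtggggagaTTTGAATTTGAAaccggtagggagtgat

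Genes of S phase lay on the other side of DMSO. Of 29 tested, 27 lay higher with Chb-50, with a median of 0.26, against 50.2% higher over all genes tested. The shLuc array had a higher median of 0.39 for the same genes, and the knockdown medians ran from -0.67 to 0.39, so the displacement from DMSO is within what arrays without a compound show. CCNE2, a cyclin of S phase entry, read 7.37 with DMSO and 8.09 with Chb-50 (0.72). It was 1 of 7 genes (24.1%) above all 9 arrays without a compound, against 15.8% of all genes tested. E2F2 (0.67) and E2F1 (0.57), the activating E2F factors, lay inside the knockdown range, and E2F7 (0.52), a repressor of the family that p53 also induces, lay above it. Minichromosome maintenance genes differed by 0.07 (MCM5) to 0.34 (MCM10).

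Replication-dependent histone genes, whose mRNA is made in S phase, lay on the same side as the mitosis genes. Of 33 listed, 10 were tested and 9 lay lower, with a median of -0.28, against 49.5% lower over all genes tested. H2BC3 read 5.78 with DMSO and 5.11 with Chb-50 (-0.67), and H2BC14 read 11.08 and 10.59 (-0.49). H2AC6 alone (10%) lay below all 9 arrays without a compound, against 17% of all genes tested. Array levels of these near-identical genes can share signal, so single members are uncertain.

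RUNX2 and RUNX3 themselves lay close to DMSO, while RUNX1 could be read only from a shared cluster. RUNX2 read 6.13 with DMSO and 5.90 with Chb-50, a difference of -0.23 (95% interval -0.54 to 0.08), and the knockdown arrays ran from 5.56 to 6.30. RUNX3 read 8.30 and 8.52, a difference of 0.22 (-0.30 to 0.74). CBFB, their common partner, read 9.57 and 9.43, a difference of -0.15 (-0.42 to 0.12). RUNX1 has no cluster of its own, and the cluster it shares with LOC100506403 read 4.20 with DMSO, 4.23 with Chb-50 and 4.13 with Chb-M', inside the 3.96 to 4.45 of the knockdown arrays. That cluster read 3.96 to 4.26 on arrays with the RUNX1 shRNA and 4.20 to 4.45 on the other knockdown arrays. These ranges overlap, so it is a weak guide to the level of RUNX1. Under the knockdown spread, the intervals of RUNX2 and CBFB lie within 1.5-fold (0.585 on the log2 scale), and that of RUNX3 does not. No replicate checks that spread for the Chb-50 array. Against the mean of the 9 arrays without a compound the differences were -0.04 for RUNX2, 0.56 for RUNX3 and 0.09 for CBFB. Several of these arrays carried shRNAs against RUNX2 or RUNX3. For these genes that mean and the knockdown range therefore hold knockdowns of the gene itself, and 0.56 is no measure of a rise of RUNX3 with Chb-50.

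Genes that core-binding factor is known to regulate in myeloid cells, and myeloid identity genes, had medians near 0. The core-binding factor targets had a median of 0.01 over 11 genes, with CSF1R at 0.10, SPI1 at 0.05, MPO at 0.00 and GFI1, a repressor of granulocyte development, at -0.26. Myeloid transcription factors had a median of 0.02 over 12 genes, azurophil granule proteins 0.01 over 10, and monocyte and macrophage genes 0.08 over 8. CEBPA read 9.05 with DMSO and 9.05 with Chb-50. In the list of genes sustained by KMT2A fusions the median was -0.10 over 11 genes, with MYB at 0.13, MEN1 at 0.19, CDK6 at -0.20 and JMJD1C, a long gene of 355 kb, at -0.34. Of these 11, 5 (45.5%) lay below all 9 arrays without a compound and 1 (9.09%) above, against 17% and 15.8% of all genes tested. Their median span was 97.3 kb, against 23.9 kb for all genes tested. Of protein-coding genes of 30 to 100 kb 16.5% lay below all 9 arrays, and of those of 100 to 200 kb 30.6% did. A link between span and the share in the KMT2A list was not tested. The shLuc array had a median of 0.24 for the same list, read against DMSO.

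**Figure D4:**
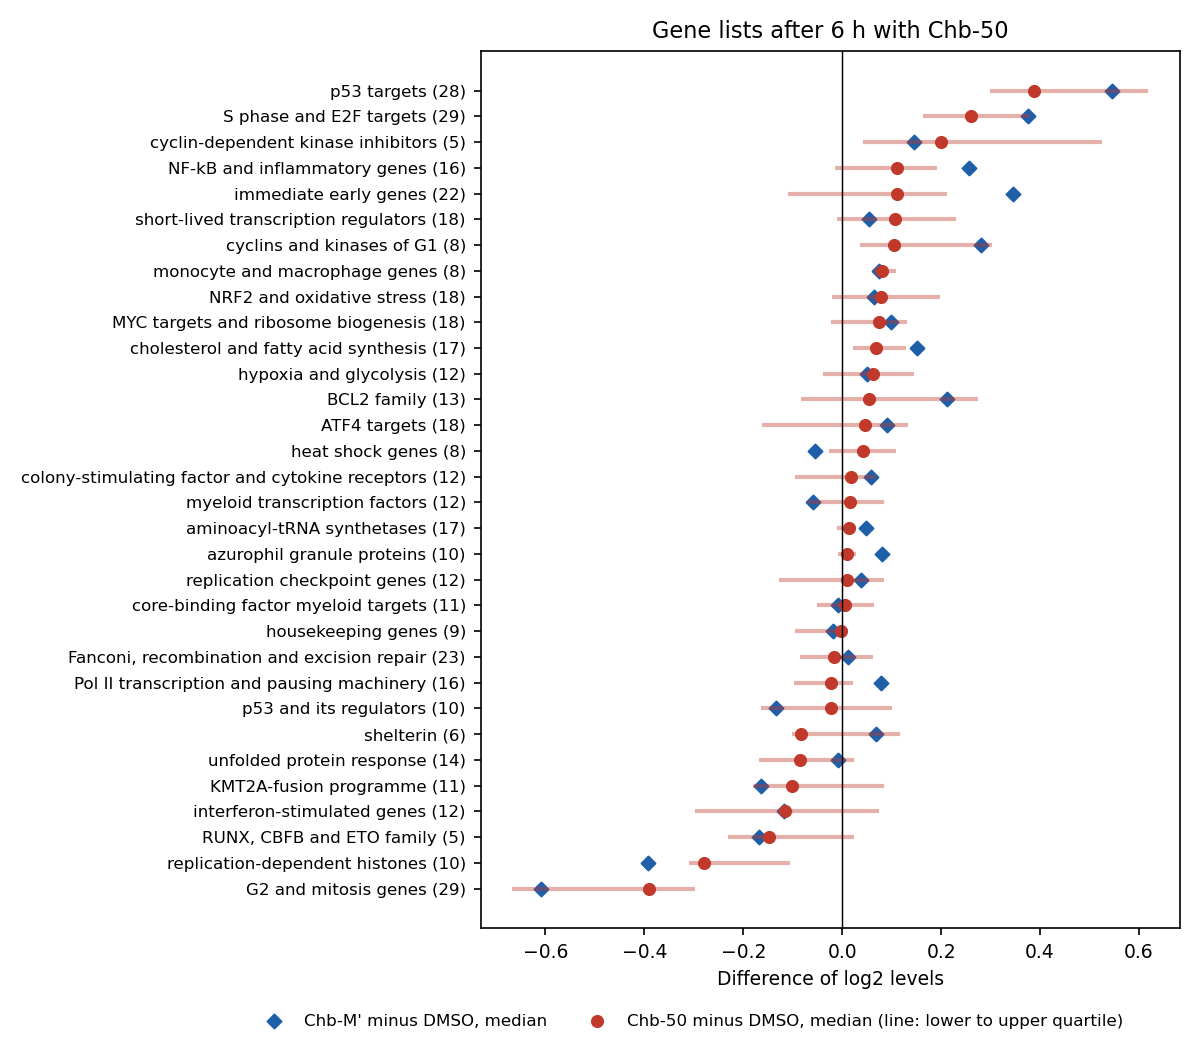
Median difference in log2 level from the DMSO array (horizontal axis) for gene lists with at least 5 genes tested (number in brackets), with Chb-50 as circles, Chb-M' as diamonds and a line from the lower to the upper quartile of the Chb-50 values. The cell type marker lists and a list of kinesin, cilia and transport genes outside mitosis are not drawn. The p53 targets at 0.39 and the genes of G2 and mitosis at -0.39 are at the ends, and most other lists lie within 0.12 of 0.

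Other stress lists had medians near 0 against the DMSO array. Medians were 0.05 for ATF4 targets, 0.04 for heat shock genes, -0.09 for the unfolded protein response and 0.08 for NRF2 targets. Against the mean of the 9 arrays without a compound the heat shock median was 0.57, that of the unfolded protein response 0.34 and that of the p53 targets 0.44. Of the 8 heat shock genes 4 (50%), and of the 18 NRF2 genes 10 (55.6%), lay above all 9 of those arrays, against 15.8% of all genes. On the shLuc array, read against DMSO, the heat shock median was -0.49 and that of the unfolded protein response -0.47. DNA repair genes of the Fanconi, recombination and excision pathways had a median of -0.02 over 23 genes, with XRCC3 (0.48) and RAD54L (0.41) highest and MGMT (-0.45), which removes alkyl groups from guanine, lowest. SERTAD1, a short-lived cofactor of E2F, read 6.06 with DMSO, 6.71 with Chb-50 and 7.12 with Chb-M' and lay at most at 5.75 on the knockdown arrays. Interferon-stimulated genes had a median of -0.12 with Chb-50, while the 8 knockdown arrays had medians from -0.87 to -0.42 against the same DMSO array. This list thus separates the knockdown arrays from the DMSO and compound arrays, which differ in shRNA, doxycycline and time together.

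Some of the single genes at the top and bottom turn on 1 array. LYNX1, a modulator of nicotinic receptors, read 4.17 with DMSO, 5.21 with Chb-50 and 4.17 with Chb-M', and at most 4.18 on the knockdown arrays, so the Chb-50 array stood alone. TNFSF9, the ligand of the costimulatory receptor 4-1BB, read 4.88 with DMSO, 5.81 with Chb-50 and 6.07 with Chb-M' and lay at most at 5.61 on the knockdown arrays. ZNF347 read 3.85 with DMSO and 2.87 with Chb-50 against 2.36 to 2.63 on the knockdown arrays, and KRTAP10-9 read 4.06 and 5.05 against 4.81 to 5.47. In these last genes the DMSO array stands apart and the Chb-50 level is near or inside the knockdown range.

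Small RNAs and dim probe sets supplied most of the genes past 2-fold. Of 298 microRNA genes 54 differed by at least 1.5-fold (18.1%), and of 98 copies of 5S ribosomal RNA 21 did (21.4%), against 2.34% of protein-coding genes and 3.37% of all genes tested. The SD of the difference over genes was 0.339 at mean levels under 4 and 0.154 at levels of 8 and over. The level filter keeps a gene that is bright on 1 array only. Dim genes that passed through the Chb-50 array alone had to lie higher than with DMSO. Those that passed through the DMSO array alone had to lie lower with Chb-50. ARHGAP42 and ZNF347 reached the filter with DMSO but not with Chb-50 or on any knockdown array.

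The Chb-M' and Chb-50 arrays share dose and time, and their direct difference does not use the DMSO array. By at least 2-fold, 24 genes differed between them (0.198%), 15 higher with Chb-M' (0.123%) and 9 lower (0.0741%). In the limma fit 0 genes had an adjusted p under 0.05 (smallest 0.0609), and 869 (7.15%) had an unadjusted p under 0.05. This single pair of compounds was compared, with 1 array each, and a p that misses the threshold does not show that the compounds act alike.

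The lists that stood furthest from DMSO with Chb-50 stood further with Chb-M'. The p53 targets had a median of 0.55 with Chb-M' beside 0.39 with Chb-50, and in the direct comparison 24 of 28 lay higher with Chb-M', with a median of 0.15, against 53.2% of all genes. For CDKN1A the direct difference was 0.22 with a 95% interval of -0.28 to 0.71, for MDM2 0.10 (-0.33 to 0.54) and for SESN2 0.63 (-0.03 to 1.29). TP53I3 lay lower with Chb-M' (4.87) than with Chb-50 (5.26). The intervals of CDKN1A, MDM2 and SESN2 include 0, and those of CDKN1A and MDM2 lie within 2-fold while that of SESN2 does not. Their width comes from the knockdown arrays.

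The mitosis list and the long genes had the same order of compounds. The mitosis genes had a median of -0.61 with Chb-M' and -0.39 with Chb-50, and 26 of 29 lay lower with Chb-M' in the direct comparison, with a median of -0.16. For CENPE the direct difference was -0.61 (95% interval -1.43 to 0.20). Genes over 200 kb had medians of -0.40 with Chb-M' and -0.25 with Chb-50, and 432 of 545 lay lower with Chb-M', with a median of -0.15, against 46.6% lower over all genes. The direct medians by span ran from 0.05 under 10 kb to -0.15 at 200 to 500 kb and -0.14 over 500 kb, and Spearman's rho of the direct difference with span was -0.246 across the 10572 protein-coding genes. CSMD3, of 1214 kb, read 6.03 with DMSO, 4.91 with Chb-50 and 4.24 with Chb-M', a direct difference of -0.67 (-1.08 to -0.26, limma adjusted p = 0.478).

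Of the lists tested, immediate early genes had the largest median difference between the compounds. These are transcription factors and phosphatases that growth and stress signals induce within minutes and that decay within hours. Over 22 genes tested the median with Chb-50 was 0.11 and none differed from DMSO by 1.5-fold. With Chb-M' the median was 0.34, and for the same genes the shLuc array, without a compound, had a median of 0.24 against DMSO. In the direct comparison 21 of 22 lay higher with Chb-M', with a median of 0.28, against 53.2% of all genes tested. The AP-1 subunit gene FOSB read 4.84 with DMSO, 4.59 with Chb-50 and 6.20 with Chb-M', and 4.85 to 5.53 on the knockdown arrays. Its direct difference was 1.62 (95% interval 0.98 to 2.25, limma adjusted p = 0.372), and on its dimmer, other cluster Chb-50 lay 0.23 above DMSO instead of 0.26 below.

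**Figure D5:**
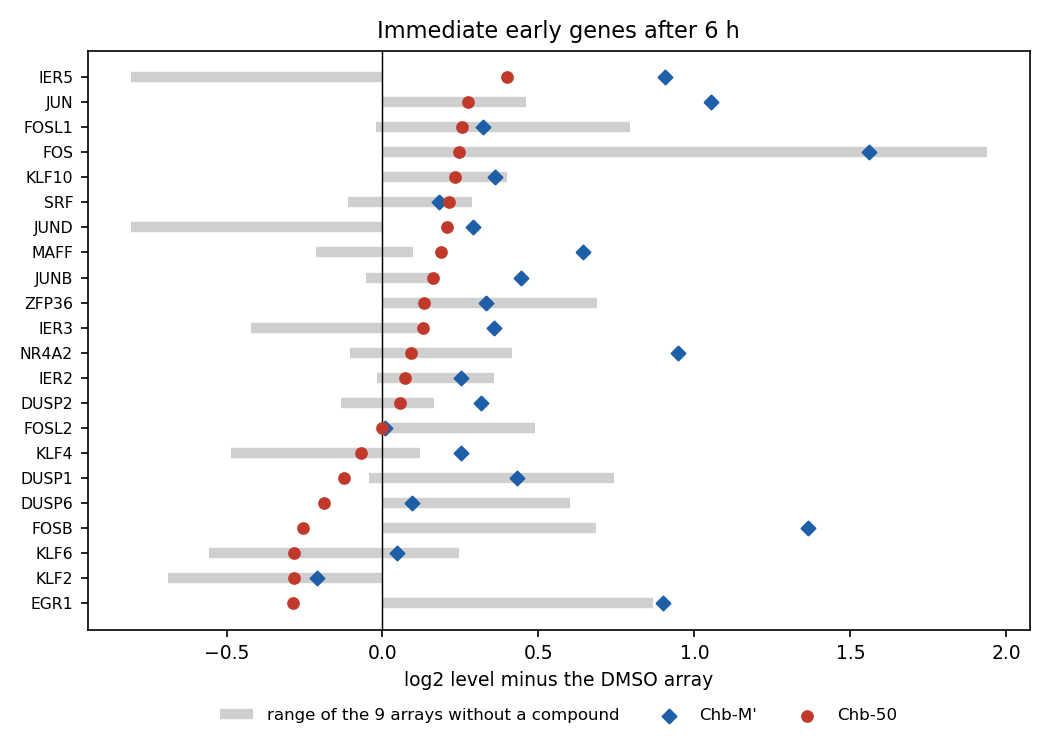
Difference in log2 level from the DMSO array (horizontal axis) for 22 immediate early genes, with Chb-50 as circles, Chb-M' as diamonds and grey bars over the 9 arrays without a compound. The diamond lies to the right of the circle in 21 genes, and the widest gaps are in FOSB, FOS and EGR1.

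The other large gaps were in genes that also vary between arrays without a compound. FOS read 6.45 with DMSO, 6.69 with Chb-50 and 8.01 with Chb-M', but the knockdown arrays, none of which had a compound, ran from 7.12 to 8.39. EGR1, a zinc finger factor, read 6.16, 5.88 and 7.07, with 6.18 to 7.03 on the knockdown arrays. Their direct differences were 1.31 (95% interval 0.52 to 2.11) and 1.19 (0.35 to 2.03), with limma adjusted p of 0.470 and 0.552. JUN, at 5.32, 5.60 and 6.38, and NR4A2, at 4.29, 4.39 and 5.24, had Chb-M' levels above all 9 arrays without a compound and Chb-50 levels within their range.

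Of the 9 genes at least 2-fold lower with Chb-M' than with Chb-50, 8 were small RNAs, which are not named here. The other was LYNX1, with a direct difference of -1.04 (95% interval -1.30 to -0.77, limma adjusted p = 0.184), and the next named genes were APRG1 (-0.999), HBQ1 (-0.99), TSPYL6 (-0.91) and KIR3DL3 (-0.87). All 5 read at most 5.21 on the DMSO and compound arrays. CDKN1C read 4.69 with Chb-50 and 4.22 with Chb-M', a direct difference of -0.47 (-0.85 to -0.08, limma adjusted p = 0.608).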

How the data were processed

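Total RNA of MV4-11 cells was labelled as cDNA and hybridised to 11 Affymetrix arrays, 1 per condition, per the labels' protocols. The values the authors deposited are log2 levels per transcript cluster, and the submitters' processing notes list RMA, Transcriptome Analysis Console 1.0 and Affymetrix Expression Console 1.3.1. Probe intensities were not used, and no source used here names the probes' genome build. Precision is limited by the number of arrays.

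Of 53617 clusters, 23558 had 1 symbol in the platform annotation. For 618 genes with several clusters the one with the highest mean was used, and genes reaching the median of all 1-symbol values, 3.80, on any array were tested. Differences came from a limma (3.58.1, R 4.3.3) fit to all 11 arrays with additive shRNA terms (4 residual and 3.19 prior degrees of freedom, Benjamini-Hochberg adjustment over 12147 genes, threshold 0.05). On simulated data with the design of Chb-50 minus DMSO over 12147 genes, 65 of 100 differences of 1 and 90 of 100 of 2 were called, with 8 false calls among 11947. The simulated noise was independent and the shRNA effects exactly additive. More genes were changed than the 36 past 2-fold on the arrays, so these shares need not hold for the arrays. The members and lists were chosen with earlier results of these data known. Named were RUNX2, RUNX3, CBFB, CDKN1A, MDM2, GADD45A, the 15 highest and lowest genes, the 8 highest and lowest of the direct comparison, the smallest p-values and list members. Small RNAs were counted by class. Alternatives tried were other scalings, level filters, cluster rules, thresholds, references and model terms, and leaving out each knockdown array.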

Additional observations from a re-analysis of the deposited data

Results flagged for a closer look

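DES, the muscle filament gene desmin, lay on opposite sides of DMSO with the 2 compounds: the difference was -0.59 with Chb-50 (3.62 against 4.21) and 0.75 with Chb-M' (4.96). The direct difference of 1.34 had a limma adjusted p of 0.679 and a 95% interval of 0.04 to 2.65, and the Chb-50 level lay inside the 3.31 to 4.49 of the knockdown arrays. A dimmer second cluster of the gene differed by 0.35 between Chb-50 and DMSO, in the opposite direction.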

How the results depend on the processing

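The count of 36 genes past 2-fold became 62 with no level filter, 9 with a stricter filter, 409 at 1.5-fold, 2 at 3-fold and 21 when the level also had to lie outside the other 10 arrays. Against the mean of the 9 arrays without a compound, a reference added after seeing the data, it was 87, the median of the RUNX, CBFB and ETO family went from -0.15 to 0.0891, the difference of CBFB, its middle member, from -0.15 to 0.0891, and the erythroid and megakaryocyte median from 0.20 to -0.20. That reference includes arrays with shRNAs against RUNX2 and RUNX3, which are members of the family. Other medians went from -0.12 to 0.62 for interferon-stimulated genes, 0.04 to 0.57 for heat shock, -0.09 to 0.34 for the unfolded protein response and 0.01 to -0.26 for azurophil granule proteins. Less the median of each span class, also added later, the RUNX median was 0.0059. With no level filter the median of genes over 200 kb was -0.0953 over 1291 genes, many of them dim. Counts of limma calls stayed at 0 for Chb-50 minus DMSO and 0 for Chb-M' minus Chb-50 when each knockdown array was left out (0 to 0), but the number of RUNX genes targeted as 1 term gave 5 for Chb-50 (DIAPH2, LYNX1, MIR4468, SHB and TRGV2, adjusted p = 0.0483). Over its alternatives the adjusted p of CDKN1A ran from 0.103 to 0.347 and that of GPHN from 0.0567 to 0.347. Of 275 list medians recomputed, 259 moved by less than the SE, and of 341 values of 19 named genes 1 changed sign. No paired analysis was possible because the groups share only replicate number 1 and each has 1 array.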
